A study of Mus musculus with 4 samples.

Results

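ATP-binding cassette (ABC) transporters were represented by 49 probe sets of 35556 on the array, those whose annotated gene symbol starts with Abc, a subfamily letter from a to g and a digit. They covered 48 genes of 19938 tested: 16 of subfamily A, 9 of B, 10 of C, 3 of D, 1 of E, 3 of F and 6 of G. Each of the 49 probe sets listed 1 gene, and Abcb5 was the 1 gene with 2 probe sets. Members of the family that carry other kinds of symbol were not counted.

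The cells were Dalton's lymphoma ascites (DLA) cells, an ascites tumour of mice that is passed on by transplantation and was grown in the peritoneal cavity of male Swiss albino mice aged 4 to 5 months. The irradiated group came from mice that received a total-body dose of 2 Gy of electron radiation on day 8 after transplantation, with cells collected 48 h later. The control group carried the same tumour and was not irradiated. No day after transplantation was listed for the control samples, so whether the tumours of the groups were of equal age is not known. RNA of each sample was hybridised to a one-colour array, 2 arrays per group, and the titles call the arrays of a group biological replicates without saying how many mice gave each sample. The p-values therefore measure the spread between these arrays, which may be in part technical. In the limma fit a gene's own spread, with 2 degrees of freedom, is combined with that of all genes, with 3.48.

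ABC proteins use the energy of ATP to move substrates across membranes. Members of subfamilies B, C and G export drugs and their conjugates from cells and are known for the multidrug resistance of tumours. Most of subfamily A and part of G move cholesterol and other lipids, subfamily D serves peroxisomes and lysosomes, and the E and F proteins have no membrane part and act on ribosomes and translation.

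Values are log2 intensities as deposited, so a difference of 1 is a 2-fold difference. Array medians lay between 6.43 and 6.46, and the number of arrays limits the precision. Among the 48 ABC genes the irradiated arrays were further apart than the control arrays for 34 and closer for 13, and the SD of the difference between replicates was 0.31 for irradiated and 0.16 for control arrays. Over all genes tested these SDs were 0.36 for irradiated and 0.17 for control arrays. The mean level reached the median over the genes tested (6.68) for 21 ABC genes and below it for 27. The labelled lymphoma was set against lymphocyte markers: the 7 measured T cell markers lay between 4.03 and 6.35 over all arrays, and 0 of them had a mean that reached that median, as did 0 of 5 B cell markers, which lay between 3.69 and 6.07. It was reached by 4 of 5 epithelial, 3 of 5 mesothelial, 3 of 7 macrophage, 1 of 10 neutrophil, 1 of 4 pan-leukocyte and 1 of 4 platelet markers, and by 0 of the measured erythroid and endothelial markers. Probe sets of different genes differ in brightness at the same amount of RNA, so these levels do not settle which cells the samples held.

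The upstream sequences of the drug-efflux genes with the largest positive differences are shown first, with Abcb1a beside its close copy Abcb1b, because Abcg2, Abcc5 and Abcb1b were higher on the same irradiated arrays. Each sequence is the 250 bases before an annotated start on the gene's own strand, 5′ to 3′, from RefSeq with coordinates of GRCm38.p6. Abcg2 has 3 such starts, and which of them these cells used was not measured. Of the 48 ABC genes, 38 had a sequence in the RefSeq table, and Abcc1 and Abcc3 were the drug-efflux genes without one. Capitals mark matches, on either strand, to the GC box GGGCGG, the CCAAT box or the NF-kB motif.
Abcg2, start 1, chr6:58584283-58584532, plus strand: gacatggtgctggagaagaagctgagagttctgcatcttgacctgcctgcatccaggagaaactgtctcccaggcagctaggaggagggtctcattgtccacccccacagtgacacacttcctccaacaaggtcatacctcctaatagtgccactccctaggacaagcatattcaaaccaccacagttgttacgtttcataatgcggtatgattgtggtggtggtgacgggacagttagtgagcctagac
Abcg2, start 2, chr6:58596422-58596671, plus strand: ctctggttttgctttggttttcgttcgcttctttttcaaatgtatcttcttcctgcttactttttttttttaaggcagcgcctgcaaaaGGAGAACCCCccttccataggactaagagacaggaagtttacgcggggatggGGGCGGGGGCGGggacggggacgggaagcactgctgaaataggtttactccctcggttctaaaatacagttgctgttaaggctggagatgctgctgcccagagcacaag
Abcg2, start 3, chr6:58640296-58640545, plus strand: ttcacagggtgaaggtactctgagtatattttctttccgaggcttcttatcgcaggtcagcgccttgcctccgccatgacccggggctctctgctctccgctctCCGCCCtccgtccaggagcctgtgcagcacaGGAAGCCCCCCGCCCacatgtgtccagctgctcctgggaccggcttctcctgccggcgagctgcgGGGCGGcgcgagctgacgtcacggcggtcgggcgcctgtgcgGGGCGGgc
Abcc5, chr16:20426395-20426644, minus strand: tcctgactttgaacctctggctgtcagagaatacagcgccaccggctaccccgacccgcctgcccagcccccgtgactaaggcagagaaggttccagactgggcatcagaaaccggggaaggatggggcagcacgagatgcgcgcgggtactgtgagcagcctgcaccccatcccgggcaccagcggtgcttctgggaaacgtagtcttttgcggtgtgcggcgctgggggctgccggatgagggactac
Abcb1b, chr5:8797897-8798146, plus strand: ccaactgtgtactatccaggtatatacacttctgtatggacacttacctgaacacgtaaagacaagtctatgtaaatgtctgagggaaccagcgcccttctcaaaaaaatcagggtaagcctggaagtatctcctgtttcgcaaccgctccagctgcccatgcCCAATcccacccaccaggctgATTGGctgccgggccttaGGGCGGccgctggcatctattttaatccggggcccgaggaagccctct
Abcb1a, chr5:8566841-8567090, plus strand: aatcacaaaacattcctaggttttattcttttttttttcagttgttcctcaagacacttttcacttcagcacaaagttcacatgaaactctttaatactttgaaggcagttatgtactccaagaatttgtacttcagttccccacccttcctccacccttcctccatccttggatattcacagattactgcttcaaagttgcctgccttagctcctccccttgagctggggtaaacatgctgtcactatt

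The GC box matched 2 times before start 2 of Abcg2, 4 times before start 3 and 1 time before Abcb1b, and 32.7% of all 32851 upstream sequences of this length held it. The CCAAT box matched 2 times before Abcb1b, against a share of 33.8% of all sequences. The NF-kB motif matched 1 time before start 2 and 1 time before start 3 of Abcg2, against 7.3% of all sequences, and before start 3 it overlapped a GC box. The AP-1 motif TGANTCA (6.7% of all sequences), the antioxidant response core TGACNNNGC (10.2%), the dioxin response core GCGTG (28.2%) and the E-box CACGTG (6.0%) had no match in these 6 sequences. Among drug-efflux sequences not shown, the antioxidant core matched before both starts of Abcc4, before Abcc2 and before start 1 of Abcc10. The dioxin core and the E-box matched only before start 1 of Abcc4. The GC box matched 3 times before start 1 of Abcc4 and 1 time before each start of Abcc10, and the CCAAT box matched 2 times before Abcc2. Start 2 of Abcc10 held none of the motifs other than the GC box. Among the 6 sequences shown, the G and C content ran from 40.4% before Abcb1a to 67.6% before start 3 of Abcg2. It was 72.0% before start 1 of Abcc4, which is not shown. A match of letters describes the sequence and does not show that a factor binds there.

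The study set irradiated against control cells to find how messenger RNA in the tumour differed after the dose. Abcg2, the efflux pump of the plasma membrane known as breast cancer resistance protein, had the highest difference of the 48 ABC genes and was about 2-fold higher in irradiated cells. Its probe set (10538640) measured 7.48 and 7.40 in irradiated arrays, against 6.35 and 6.39 in control arrays. The groups did not overlap, and each group's own values were close together. The means were 7.44 ± 0.06 in irradiated and 6.37 ± 0.03 in control cells (SD, n = 2 arrays each). The difference was 1.07 on the log2 scale with a standard error of 0.11 and a 95% interval of 0.79 to 1.35, a 2.10-fold difference. It had the 11th smallest limma p of the 19938 genes, an unadjusted p of 1.33e-04 and an adjusted p of 0.193, so it did not pass the threshold of 0.05 over all genes. With each array left out in turn the difference stayed between 1.03 and 1.11.

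No ABC gene passed the adjusted threshold in limma, which 0.00502% of all genes did (1 of 19938). At an unadjusted limma p under 0.05, 5 ABC genes were higher and 1 was lower in irradiated cells, or 10.4% and 2.08% of the family, beside 5.21% and 5.1% of all genes. With a difference of at least 1.5-fold in addition, the ABC genes were Abcg2 and Abcc5, both higher, which is 4.17% of the family beside 1.7% of all genes, and 0 were lower beside 0.672%. The arrays of the groups did not overlap for 10 genes higher in irradiated cells (20.8%, beside 17.8% of all genes) and for 6 lower (12.5%, beside 23.9%). The family median difference was 0.03, and that of all genes was -0.03. The counts at an unadjusted p depended on single arrays, in the family as over all genes. With an array left out the family median difference lay between -0.015 and 0.0575.

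**Figure D1:**
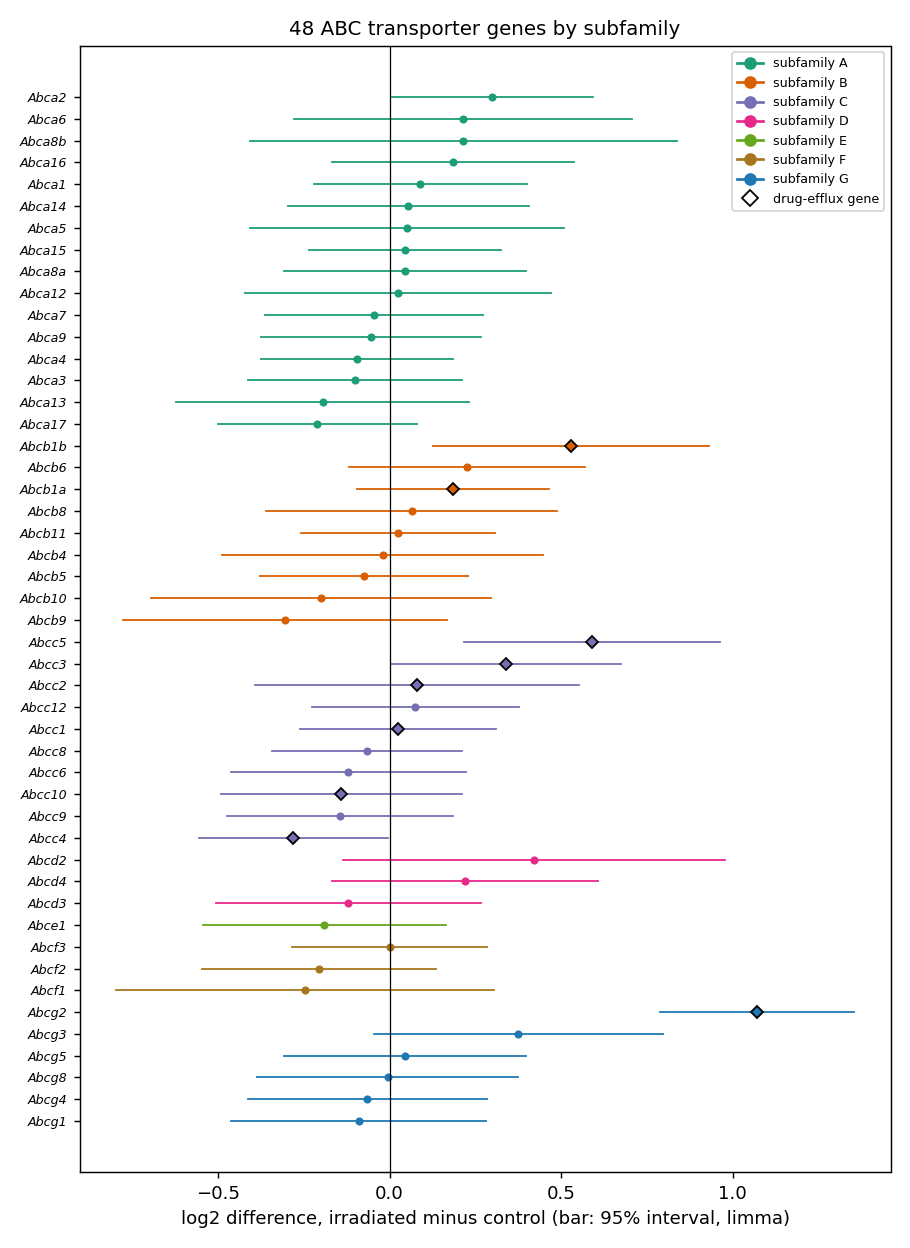
Log2 difference (irradiated minus control) of the 48 ABC transporter genes, grouped by subfamily and ordered by size within it, with bars for the 95% interval of the limma fit on 2 arrays per group and diamonds for drug-efflux genes. Abcg2 at 1.07 stands apart on the right, followed by Abcc5 at 0.59 and Abcb1b at 0.53, and the other differences lie between -0.31 and 0.42.

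The drug-efflux list held Abcb1a, Abcb1b, Abcg2, Abcc1, Abcc2, Abcc3, Abcc4, Abcc5 and Abcc10, all measured. Of these 9 genes, 7 were higher and 2 lower in irradiated cells, 4 were past an unadjusted limma p of 0.05 upward (Abcg2, Abcc5, Abcb1b and Abcc3), 1 was past it downward (Abcc4) and 0 passed the adjusted threshold. Over all genes 5.21% were past the unadjusted threshold upward and 5.1% downward. Which of the 9 genes were past the unadjusted threshold depended on single arrays, as it did over all genes. The list median was 0.19, beside -0.01 for the 39 other ABC genes and -0.03 for all genes. Among the 39 other ABC genes, 18 were higher, 20 lower and 1 equal, and 1 (Abca2) was past the unadjusted threshold. The difference between the list and the rest of the family was not tested, and the list was chosen with earlier results of these data known.

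Abcc5, an exporter of cyclic nucleotides and of glutathione conjugates, measured 7.51 and 7.82 in irradiated arrays, against 7.01 and 7.14 in control arrays. The groups did not overlap, and the irradiated arrays were further apart than the controls. The difference was 0.59 (1.51-fold, standard error 0.15, limma unadjusted p = 0.00906, adjusted p = 0.380). It was 0.44 when irradiated replicate 2 was left out and 0.75 when irradiated replicate 1 was, and its unadjusted limma p was 0.0876 without control replicate 1.

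The P-glycoprotein of mice is encoded by a pair of neighbouring genes, Abcb1a and Abcb1b, which export a wide range of hydrophobic drugs. Abcb1b measured 8.48 and 8.10 in irradiated arrays, against 7.72 and 7.80 in control arrays. Its groups did not overlap, with irradiated replicate 1 the higher of its pair. The difference was 0.53 (1.44-fold, standard error 0.16, limma unadjusted p = 0.0187, adjusted p = 0.438), and it was 0.34 with irradiated replicate 1 left out and 0.72 with irradiated replicate 2 left out. Its unadjusted limma p was 0.125 in the fit without control replicate 1 and 0.0880 in the fit without control replicate 2.
Abcb1a measured 6.54 and 6.60 in irradiated arrays, against 6.40 and 6.37 in control arrays. These groups did not overlap either, but the gap between them was small: the difference was 0.19 (standard error 0.11, limma unadjusted p = 0.153). Whether the probes of these similar genes pick up each other's transcripts was not tested. Abcb4, which neighbours them on chromosome 5 and encodes the phospholipid exporter of bile, measured 5.45 and 5.94 in irradiated arrays, against 5.77 and 5.66 in control arrays, a difference of -0.02.

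The multidrug resistance genes of subfamily C included differences in both directions. Abcc3, an exporter of conjugates on the basal side of epithelia, measured 8.02 and 7.86 in irradiated arrays, against 7.70 and 7.50 in control arrays. The groups did not overlap, and the difference of 0.34 (1.27-fold, standard error 0.13) had an unadjusted limma p of 0.0482 and an adjusted p of 0.483. It was 0.24 without control replicate 2 and 0.44 without control replicate 1, and its unadjusted p was above 0.05 in each fit of 3 arrays.
Abcc4, which exports cyclic nucleotides and prostaglandins, measured 8.38 and 8.37 in irradiated arrays, against 8.66 and 8.65 in control arrays. It was the ABC gene lower in irradiated cells past the unadjusted threshold, and the arrays of each group were nearly equal. Its limma standard error, given next, draws on the spread of all genes. The difference was -0.28 (1.21-fold lower, standard error 0.11, limma unadjusted p = 0.0470, adjusted p = 0.481), and it lay between -0.29 and -0.28 with each array left out. Its unadjusted limma p was 0.211 without control replicate 1 and 0.198 without control replicate 2.

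The other 3 drug-efflux genes had groups that overlapped. Abcc1, the glutathione-conjugate pump first known from drug-resistant tumour cells, measured 9.41 and 9.31 in irradiated arrays, against 9.35 and 9.32 in control arrays. Its difference was 0.03 with a 95% interval of -0.26 to 0.31.
Abcc2, the conjugate pump of the bile canaliculus, measured 5.14 and 5.30 in irradiated arrays, against 4.90 and 5.38 in control arrays. The control arrays lay on either side of the irradiated ones, and the interval of the difference was -0.39 to 0.55. Abcc10, a related pump that transports taxanes, measured 7.48 and 7.19 in irradiated arrays, against 7.47 and 7.48 in control arrays, so that irradiated replicate 2 alone was lower. Its difference was -0.14 with an interval of -0.49 to 0.21.

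**Figure D2:**
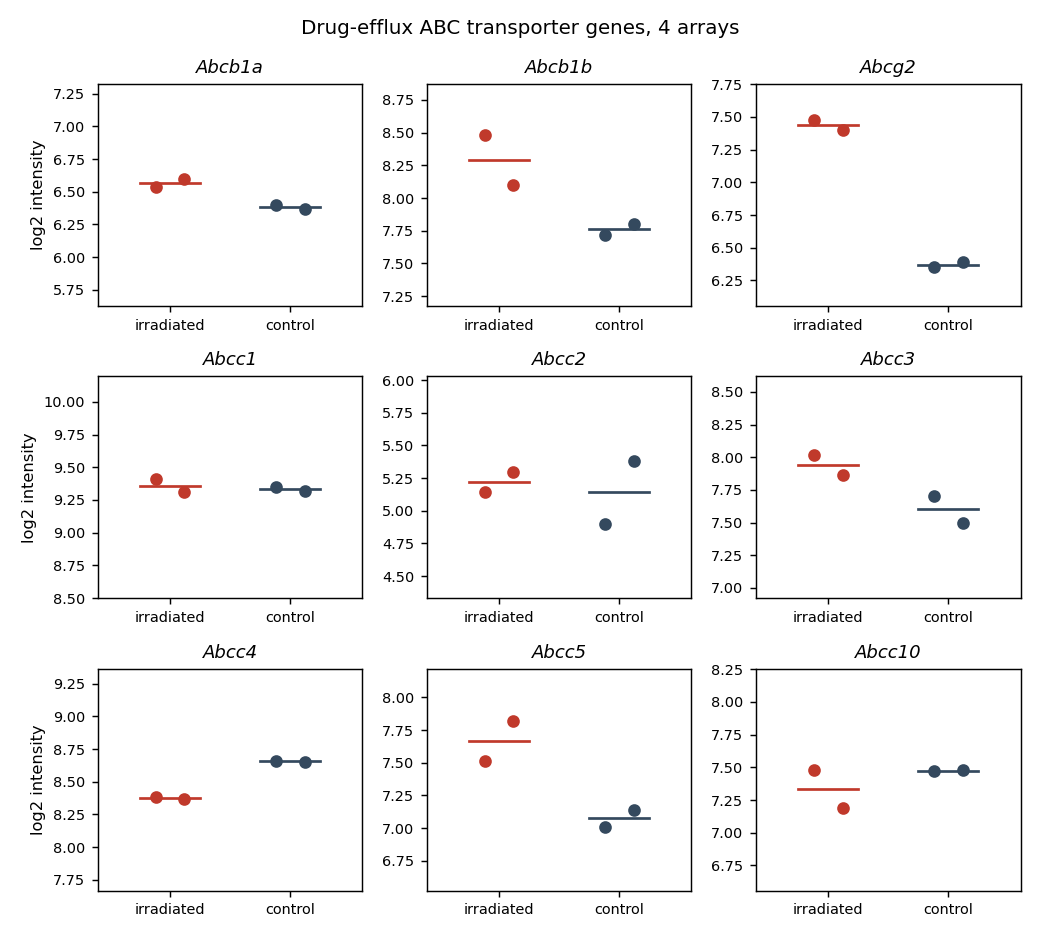
Log2 intensity of the 9 drug-efflux genes on each of the 4 arrays, irradiated (red) left of control (dark), with a line at the mean of each pair and a vertical span of equal length in every panel. The pairs of Abcg2, 7.48 and 7.40 against 6.35 and 6.39, are the furthest apart, those of Abcc5, Abcb1b, Abcc3 and Abcb1a are separate with irradiated arrays above, those of Abcc4 are separate with irradiated arrays below, and those of Abcc1, Abcc2 and Abcc10 overlap.

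**Figure D3:**
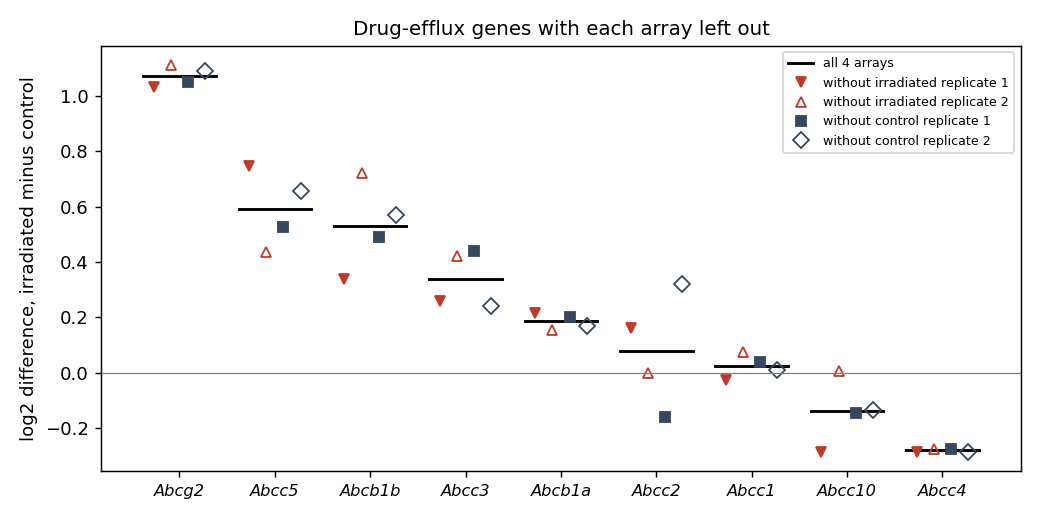
Log2 difference (irradiated minus control) of the 9 drug-efflux genes with all 4 arrays (line) and with each array left out (symbols). Abcg2 stays between 1.03 and 1.11, Abcc5 lies between 0.44 and 0.75, Abcb1b between 0.34 and 0.72 and Abcc4 between -0.29 and -0.28, while Abcc1, Abcc2 and Abcc10 reach or cross 0.

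Several drug pumps of subfamily C act on conjugates that other enzymes make. Genes of that path were listed with the drug pumps: glutathione synthesis and transfer, the NRF2 regulators and xenobiotic receptors. Of 14 measured genes, 6 were higher and 8 lower, with a median of -0.01. Past the unadjusted threshold was 1, upward, beside 5.21% of all genes upward and 5.1% downward. This was Gsta4, a glutathione transferase for lipid peroxidation products, which measured 9.05 and 10.21 in irradiated arrays, against 8.66 and 8.52 in control arrays (difference 1.04, limma unadjusted p = 0.0338). Irradiated replicate 2 carried most of it, and the difference was 0.46 without that array. Nfe2l2, which encodes NRF2, had a difference of 0.20 with overlapping groups, and its target Nqo1 had one of 0.10.

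Markers of cell types also differed between the same arrays. Where a sample holds mixed cells, fewer cells of a type and less RNA per cell cannot be told apart. Of 7 macrophage markers 4 were higher and 3 lower, and the array means of the list were 6.69 and 6.64 in irradiated and 6.54 and 6.53 in control arrays. Among them the mannose receptor Mrc1 was higher by 0.90 and the colony-stimulating factor receptor Csf1r was lower by 0.52, while Adgre1 lay between 4.14 and 4.31 on all arrays. Blood cell markers were mostly lower. Of 4 measured erythroid markers 3 were lower, with list means of 5.96 and 5.90 in irradiated and 6.15 and 6.13 in control arrays. Of 10 neutrophil markers 8 were lower and Ly6g was among the 2 that were higher, with list means of 6.14 and 6.08 in irradiated and 6.36 and 6.50 in control arrays. Ly6g, a surface protein of neutrophils, measured 12.04 and 11.89 in irradiated arrays, against 8.87 and 8.82 in control arrays, a difference of 3.12 (8.69-fold, limma adjusted p = 0.0117). Of the 19938 genes no other passed the adjusted threshold. Other neutrophil markers had the opposite sign: the differences were -2.60 for Retnlg, -1.16 for the chemokine receptor Cxcr2 and -1.0 for the calcium-binding protein S100a9, all with groups that did not overlap. Over the 9 neutrophil markers other than Ly6g, a subset chosen after the values were seen, the list means were 5.48 and 5.44 in irradiated and 6.08 and 6.24 in control arrays. All 4 pan-leukocyte markers were lower, with list means of 6.37 and 6.19 in irradiated and 6.85 and 7.05 in control arrays. The epithelial markers were lower as well: all 5 had negative differences, with list means of 10.80 and 10.26 in irradiated and 11.17 and 11.08 in control arrays. Krt7, Epcam, Krt18 and Krt8 differed by -1.19, -0.61, -0.60 and -0.48, or -0.58, -0.34, -0.43 and -0.16 without irradiated replicate 2. Cdh1 differed by -0.09 with overlapping groups. Platelet markers went the other way for Ppbp and Pf4, which were higher by 0.68 and 0.36, while Itga2b and Gp9 differed by -0.09 and 0.01. The median difference was -0.18 for T cell, 0.00 for B cell, -0.10 for mesothelial and -0.02 for endothelial markers. Of 7 T cell markers 6 were lower, 4 with groups that did not overlap, beside 23.9% of all genes. Of 5 mesothelial markers 3 were lower. Krt19 and Msln differed by -0.87 and -0.67, or -0.33 and -0.25 without irradiated replicate 2, and Lrrn4 by 0.22. In the B cell list, with 2 higher and 2 lower, Cd79a differed by 0.50 and Pax5 by -0.23. The part of these cells in the ABC values was not tested.

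Outside Abcg2, subfamily G had small differences. Abcg3, a relative of Abcg2, measured 5.86 and 6.20 in irradiated arrays, against 5.53 and 5.78 in control arrays. The groups did not overlap, and the difference of 0.38 had an unadjusted limma p of 0.0715. The cholesterol exporters Abcg1 and Abcg4 had differences of -0.09 and -0.07 with overlapping groups. Abcg1 measured 6.48 and 6.15 in irradiated arrays, against 6.39 and 6.42 in control arrays, and Abcg4 measured 6.74 and 7.02 in irradiated arrays, against 6.97 and 6.92 in control arrays. Abcg5 and Abcg8, neighbouring genes whose products form one sterol exporter of liver and gut, differed by 0.05 and -0.01.

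Subfamily A, which moves lipids, held 10 genes higher and 6 lower in irradiated cells with a median of 0.05. Abca2, a lipid transporter of endosomes and lysosomes, was its 1 gene of 16 past the unadjusted threshold, beside 5.21% of all genes upward. It measured 8.89 and 8.86 in irradiated arrays, against 8.64 and 8.51 in control arrays. The groups did not overlap, and the difference was 0.30 (1.23-fold, standard error 0.12, limma unadjusted p = 0.0461, adjusted p = 0.481). In fits of 3 arrays it lay between 0.24 and 0.37 with each unadjusted p above 0.05. At the other end, Abca17 measured 5.53 and 5.43 in irradiated arrays, against 5.65 and 5.73 in control arrays, a difference of -0.21, and Abca13 differed by -0.20 with overlapping groups.

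The cholesterol exporter Abca1 measured 5.40 and 5.41 in irradiated arrays, against 5.22 and 5.41 in control arrays, and its difference of 0.09 had an interval of -0.22 to 0.40. Its relative Abca7 differed by -0.05. Over the 6 exporters of cholesterol and phospholipid (Abca1, Abca7, Abcg1, Abcg4, Abcg5 and Abcg8) the differences ran from -0.09 to 0.09, 2 were higher and 4 lower, and the groups of all 6 overlapped. Of 12 measured genes of sterol sensing and transport, 6 were higher and 6 lower with a median near 0 and 0 past the unadjusted threshold. Among these, Nr1h3, the liver X receptor that activates Abca1 and Abcg1, differed by 0.17. Of other targets of that receptor, Pltp, a phospholipid transfer protein, differed by 0.31 and Srebf1, a regulator of lipid synthesis, by 0.24, while Mylip, which lowers the LDL receptor, differed by -0.26. The groups of these 4 genes did not overlap. Of the 12 genes, groups did not overlap for 3 higher and 2 lower, beside 17.8% and 23.9% of all genes. Apoe, on the same list, differed by -0.33 with overlapping groups.

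The remaining A genes differed little between the groups. Abca5, a lysosomal lipid transporter, measured 9.41 and 9.83 in irradiated arrays, against 9.45 and 9.69 in control arrays, so that the replicates of both groups were further apart than the groups. It is the last of 5 neighbouring genes on chromosome 11, with Abca8b, Abca8a, Abca9 and Abca6, whose differences were 0.22, 0.05, -0.06 and 0.22. For both genes at 0.22, irradiated replicate 2 lay above the other 3 arrays and irradiated replicate 1 did not. Abca3, which loads surfactant lipid in the lung, differed by -0.10, the retinal transporter Abca4 by -0.10 and the keratinocyte transporter Abca12 by 0.03. The neighbouring genes Abca14, Abca15 and Abca16 differed by 0.06, 0.05 and 0.19, with overlapping groups.

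Subfamily B holds mitochondrial and lysosomal transporters beside the pumps described above. Abcb6, linked to porphyrin transport, measured 8.64 and 8.40 in irradiated arrays, against 8.36 and 8.23 in control arrays. Its groups did not overlap, and the difference was 0.23 (standard error 0.14, limma unadjusted p = 0.157), with a range of 0.11 to 0.35 when an array was left out. Abcb10, of the inner mitochondrial membrane, measured 7.43 and 6.89 in irradiated arrays, against 7.32 and 7.40 in control arrays, so that irradiated replicate 2 alone was lower. Abcb8, also mitochondrial, differed by 0.07. Of 13 measured genes of haem synthesis and iron-sulphur assembly 7 were higher and 6 lower with a median of 0.01. The mitochondrial iron importer Slc25a37 was the 1 past the unadjusted threshold, at 9.04 and 9.72 in irradiated arrays, against 8.68 and 8.53 in control arrays. Its difference of 0.78 was 0.44 without irradiated replicate 2. Over all genes 5.21% were past the unadjusted threshold upward.

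Abcb9, a peptide transporter of lysosomes, had the lowest difference of the family. It measured 6.66 and 6.16 in irradiated arrays, against 6.67 and 6.76 in control arrays. Irradiated replicate 2 was clearly lower and irradiated replicate 1 was next to the controls, so the difference of -0.31 (limma unadjusted p = 0.162) was -0.56 with irradiated replicate 1 left out, against -0.06 with irradiated replicate 2 left out. Its relatives Tap1 and Tap2, which carry peptides to MHC class I, differed by -0.23 and 0.19. In the list of peptide transport and loading 5 of 6 genes were higher with a median of 0.26. Groups did not overlap for 4 of them, all higher, beside 17.8% of all genes. Past the unadjusted threshold were 0, beside 5.21% of all genes upward and 5.1% downward. The bile salt pump Abcb11 differed by 0.03, and the probe sets of Abcb5 gave -0.08 and 0.12, both with overlapping groups.

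The remaining C genes were Abcc6, Abcc8, Abcc9 and Abcc12. Abcc8 and Abcc9, which encode the sulphonylurea receptors of ATP-sensitive potassium channels, differed by -0.07 and -0.15, and the channel genes Kcnj11 and Kcnj8 by -0.12 and -0.20, values that became 0.27 and 0.19 without irradiated replicate 2. Abcc8 measured 6.21 and 6.20 in irradiated arrays, against 6.29 and 6.25 in control arrays. Its groups did not overlap, at a difference smaller than its limma standard error of 0.11, which draws on the spread of all genes. Abcc6 and Abcc12 differed by -0.12 and 0.08 with overlapping groups.

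Subfamily D had a median of 0.22 over 3 genes. Abcd2, a peroxisomal importer of very-long-chain fatty acids, measured 5.35 and 5.99 in irradiated arrays, against 5.24 and 5.26 in control arrays. The groups did not overlap, but irradiated replicate 2 carried most of the difference of 0.42 (limma unadjusted p = 0.112), which was 0.10 without that array and 0.74 without irradiated replicate 1. Abcd4, which exports cobalamin from lysosomes, measured 7.73 and 8.09 in irradiated arrays, against 7.71 and 7.67 in control arrays, a difference of 0.22 that again lay mostly in irradiated replicate 2. Abcd3, the abundant peroxisomal membrane protein, measured 8.44 and 8.76 in irradiated arrays, against 8.64 and 8.80 in control arrays, with overlapping groups and a difference of -0.12. Of 13 measured genes of peroxisome assembly and fatty acid oxidation, 5 were higher and 8 lower, and 2 were past the unadjusted threshold, both lower: Pex11a by 0.42 and Pex16 by 0.38, which act in peroxisome division and membrane assembly. Over all genes 5.1% were past that threshold downward. The Pex11a difference was -0.26 without irradiated replicate 1, and that of Pex16 was -0.25 without control replicate 1.

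The E and F genes, which work on ribosomes, had differences at or below 0, none of them past the unadjusted threshold on all 4 arrays. Abce1, the ribosome recycling factor, measured 11.07 and 11.35 in irradiated arrays, against 11.35 and 11.45 in control arrays, a difference of -0.19 with groups that touched. Leaving out irradiated replicate 1 gave -0.05, and leaving out irradiated replicate 2 gave -0.33. Abcf2 measured 10.73 and 10.48 in irradiated arrays, against 10.86 and 10.76 in control arrays. Both irradiated arrays of Abcf2 were below both controls, and the difference was -0.21 (standard error 0.14, limma unadjusted p = 0.188). It shrank to -0.08 with irradiated replicate 2 left out and was -0.33 with irradiated replicate 1 left out.
Abcf1, a factor of translation initiation, measured 9.37 and 8.74 in irradiated arrays, against 9.28 and 9.32 in control arrays, so that irradiated replicate 2 alone was lower. Its difference of -0.25 became 0.07 without that array and -0.56 without irradiated replicate 1. Abcf3 measured 8.88 and 8.86 in irradiated arrays, against 8.92 and 8.82 in control arrays, a difference of 0.00 with an interval of -0.29 to 0.29. Of 8 measured partners in ribosome recycling, termination and initiation, 3 were higher and 5 lower with a median of -0.19. Groups did not overlap for 4 of them, all lower, beside 23.9% of all genes. Past the unadjusted threshold were 0, beside 5.21% of all genes upward and 5.1% downward. The closest to it were Eif2s2, a subunit of initiation factor eIF2, at -0.28 and Hbs1l, which acts with Pelo to rescue stalled ribosomes, at -0.46. Hbs1l measured 10.40 and 9.85 in irradiated arrays, against 10.63 and 10.53 in control arrays, and its difference was -0.18 with irradiated replicate 2 left out, against -0.73 with irradiated replicate 1 left out.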

How the data were processed

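RNA of DLA cells (300 ng per sample) was labelled with biotin, per the labels' protocols. The authors deposited log2 probe set intensities made with RMA, per the submitters' processing notes, with no version, genome build or annotation given in the sources used here. RMA gives all arrays a common distribution and compresses folds of dim probe sets. The table held 0 columns of other samples, and no scan date or slide was given, so batches could not be examined.

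Probe sets were named from the platform annotation, with symbols updated by Entrez identifier through RefSeq (GRCm38.p6, names and neighbours). For 19938 genes with a 1-symbol probe set, the brightest by its mean over all arrays was fitted with limma 3.58.1 in R 4.3.3 (lmFit and eBayes, two-sided, Benjamini-Hochberg over all genes, threshold 0.05). A second count required an unadjusted p under 0.05 and 1.5-fold. An exact permutation test of 2 against 2 arrays cannot go below p = 0.333 and was not used. The fit was tested on simulated data. Named were the drug-efflux genes, the highest and lowest difference and the highest mean of each subfamily, each gene past an unadjusted p of 0.05, Abcb5, and up to 4 partner genes per list past that p; others were added after their values were seen. The members and gene lists were chosen with earlier results of these data known. With 2 pairs and no shared source in the labels, replicate numbers were not taken as pairs.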

Additional observations from a re-analysis of the deposited data

How the results depend on the processing

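No ABC gene passed the adjusted threshold in limma in any of the 14 other fits. The count of ABC genes past an unadjusted p of 0.05 with at least 1.5-fold was 2, beside 473 of all 19938 genes. It was 1, namely Abcg2, with a 2-fold threshold (92 of all genes) and after quantile normalization (481 of all genes). It also changed with single arrays left out, as did the count over all genes. The median difference of the drug-efflux genes was 0.19 and ran from 0.16 to 0.24 with an array left out. With genes below the median mean level removed, Abcg2 was kept only through its irradiated arrays (mean 7.44 in irradiated and 6.37 in control cells, against a limit of 6.68), so the drug-efflux median and the Abcg2 p of that fit are not used. Abcg2 was past the unadjusted threshold in the 13 other fits (limma adjusted p from 0.123 to 0.998). Of all 14, Abcc5 was past it in 13 and Abcb1b in 12. Abcc4 did so in 9, Abcc3 in 7 and Abca2 in 7, so the calls of these last 3 depend on the normalization, the features fitted and single arrays. These 6 genes kept their direction in every fit. Among the other genes named by the stated rules, the differences of Abcb5, Abcc1, Abcc2, Abcc10, Abca5, Abcd3, Abcf1, Abcg1 and Abcg4 changed sign in at least 1 fit. None of these was past the unadjusted threshold on all 4 arrays. Further ABC genes changed sign with an array left out, among them Abca6, Abca8b, Abcb8 and Abcb10. With the replicate number as a block (replicate block) the adjusted count was 0, the count with a fold was 2 (476 of all genes) and the drug-efflux median was 0.19. In that fit 5 ABC genes were higher and 0 lower at an unadjusted p, beside 8.55% of all genes in either direction. Abca2 and Abcc4 were no longer among those past it. Deviations of same-numbered arrays correlated with r = 0.07 across all genes, which are not independent replicates. A fit without 1 array leaves a group with 1 array, assumed to vary like the other group, and without irradiated replicate 1 the spread comes from the control arrays.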
